A study of Mus musculus with 4 samples.

Results

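The fibroblast growth factor (FGF) family was followed through 10 genes, the 4 receptors Fgfr1, Fgfr2, Fgfr3 and Fgfr4 and the 6 ligands Fgf1, Fgf2, Fgf7, Fgf8, Fgf9 and Fgf10, out of 18193 genes on the arrays. The genes were taken by symbol, and every probe set (a group of short probes read together as 1 value) carrying one of these symbols in the platform table was used. This gave 23 of 45101 probe sets, 13 for receptors and 10 for ligands. RNA came from structures cut by laser from frozen sections of wild-type CD-1 mouse fetal kidneys at E15.5, counted in embryonic days (Theiler stage 23), each array holding a pool of about 50 sections from 5 kidneys, of unknown sex. The cortical collecting duct, an outer part of the epithelial tree grown from the ureteric bud, had 1 array (replicate 3), called the duct array here. The anlage of loop of Henle, the early form of a nephron segment, had 3 arrays (replicates 1 to 3). Nothing in the labels says whether pools shared kidneys or litters, so p-values measure only the spread between these samples, which may be technical.

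FGFs are secreted proteins that bind receptor tyrosine kinases on neighbouring cells, with heparan sulfate chains as a required partner. In the fetal kidney, mouse genetics has tied them to several steps. Fgfr2 in the ureteric epithelium is needed for normal branching, and its epithelial splice form binds Fgf7 and Fgf10 made by the surrounding mesenchyme. Fgf8 in the newly forming nephron is needed for that nephron to survive and grow, and Fgf9 helps to keep nephron progenitors undifferentiated. Active receptors signal through adaptor proteins and the MAP kinase relay to ETS transcription factors, and induce their own inhibitors, among them the Sprouty proteins and the phosphatase Dusp6.

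Markers were read beside the labels. Their lists were chosen with earlier results of these data known, so the counts are no independent check of the labels. Of 12 collecting duct markers, 12 had a higher value in the duct array and 10 exceeded all 3 anlage arrays. The shares of all tested genes that did so were 45.1% and 17.3%. Of 10 markers of the loop and its thick ascending limb, 10 lay below all 3 anlage arrays in the duct array (24.3% of all tested genes). The summed intensity of the collecting duct markers was 126470 in the duct array, against 26985, 57966 and 18528 in anlage arrays 1, 2 and 3. That of the loop markers was 5813 in the duct array, against 141765, 29738 and 97358 in the anlage, so anlage array 2 was closest to the duct array on both lists. Over all tested genes it was the least like it, since log2 values correlated across genes at r = 0.902, 0.868 and 0.901 between the duct array and anlage arrays 1, 2 and 3. Anlage arrays 1 and 2 correlated at 0.813, less than the duct array did with any anlage array, so the arrays do not group by structure on this measure. The other anlage pairs gave 0.886 (arrays 1 and 3) and 0.915 (arrays 2 and 3). The ratio of 3' to 5' signal for Gapdh, higher where RNA is broken or incompletely copied, was 12.0 in the duct array and 10.3, 54.1 and 26.0 in the anlage.

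Values are intensity units after quantile normalization, which gives all 4 arrays the same distribution. Differences are collecting duct minus anlage on the scale log2(intensity + 109.6), which understates the change of a dim gene. A gene with several probe sets was represented by the one with the highest mean, and genes whose mean log2 value lay under 8.416 (about 232 units) were called dim and not tested. Fgf2 and Fgf8 were dim, which left 8 of the 10 genes among 12642 tested.

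At an adjusted p of 0.05, limma called 0 of all tested genes upward and 0 downward (background 0% in each direction), and 0 of the 8 FGF genes. At an unadjusted p under 0.05, 1 FGF gene had a higher value, Fgfr2, against 1.18% of all tested genes (149 genes), and 1 had a lower value, Fgfr3, against 2.23% (282 genes). Leaving out anlage array 3 gave 0 FGF genes at this limit and 192 genes in all, in place of 431, while leaving out array 1 gave 1401 genes in all. The duct array exceeded all 3 anlage arrays for 1 of the 8 genes (background 17.3%) and lay below all 3 for 2 of them (background 24.3%), shares close to those of all genes. Differences of at least 1 on the log2 scale were found for 1 gene upward (background 4.64%) and 1 downward (background 6.99%). The median difference of the 8 genes was -0.15, against -0.06 for all 12642. Set against 3 arrays, 1 array can reach no exact permutation p below 0.25, so none was run for single genes.

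Among the 8 tested genes the receptors gave the widest contrast, with Fgfr2 higher and Fgfr3 lower in the duct array, while Fgf8, too dim for the test, is described with the ligands. Fgfr2, the receptor of ureteric branching, read 14314 units in the duct array, against 3979, 6261 and 6983 units in anlage arrays 1, 2 and 3. The collecting duct value lay above every anlage value, and the groups did not overlap. The difference was 1.34 ± 0.53 (SE), a 2.53-fold higher value, with a 95% interval from 0.04 to 2.64, an unadjusted p of 0.0447 and an adjusted p of 1.00 by limma. Fgfr2 was rank 384 of all tested genes by p. Without anlage array 1, 2 or 3 in turn the difference was 1.13, 1.37 and 1.47.

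Fgfr2 was the only one of the 7 FGF genes with several probe sets whose probe sets all lay on the same side of every anlage array. Its probe set 1420847_a_at read 5958 units in the duct array, against 2127, 564 and 1245 units in the anlage arrays, a difference of 2.26. Its probe set 1443211_at read 1380 units in the duct array, against 695, 238 and 397 units, a difference of 1.51. Both were lowest in anlage array 2 and highest, within the anlage, in array 1, opposite to the order of the Gapdh ratio. The Gapdh ratio of the duct array lay between those of anlage arrays 1 and 3, and both probe sets were highest in the duct array. The probe set that stands for Fgfr2 ran in another order within the anlage, lowest in array 1 and highest in array 3. The part of transcript length in these values was not tested.

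Fgfr3, a receptor best known for restraining bone growth, read 710 units in the duct array, against 2566, 3385 and 3049 units in the anlage arrays. The 3 anlage values were close together, and the collecting duct value lay below all of them. The difference was -1.91 ± 0.52 (SE), a 3.77-fold lower value, with a 95% interval from -3.18 to -0.65, an unadjusted p of 0.0101 and an adjusted p of 1.00 by limma, and Fgfr3 was rank 93 by p. The anlage SD of Fgfr3, 0.19 on the log2 scale (n = 3), was the smallest of the 8 tested FGF genes and lay below the median SD of all tested genes, 0.46. The second probe set of Fgfr3 was dim in all 4 arrays, at 96.3 units in the duct array and 56.5, 158 and 26.1 units in the anlage arrays, and its difference was 0.18. With the mean of both probe sets the difference of Fgfr3 was -0.87, and without anlage array 1, 2 or 3 in turn it was -2.18, -1.69 and -1.88.

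The contrast between these receptors can also be read within each array. Because of the added offset and the quantile normalization, scaling of the whole array does not cancel exactly. The log2 value of Fgfr2 minus that of Fgfr3 was 4.14 in the duct array, against 0.61, 0.87 and 1.17 in anlage arrays 1, 2 and 3 (mean 0.88 ± 0.28, SD, n = 3). The size of this number in any one array depends on the probes, so only its change between arrays, 3.26 on the log2 scale, can be interpreted. It was not tested, since the pair was put together after the values were seen.

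Fgfr4, a receptor with roles in liver and muscle, read 1470 units in the duct array, against 3331, 1681 and 2220 units in the anlage arrays. The collecting duct value was the lowest of the 4 but close to that of anlage array 2. The difference was -0.62 ± 0.59 (SE), with a 95% interval from -2.07 to 0.83 (unadjusted p = 0.335, limma). Of the 5 probe sets of Fgfr4, 3 had a lower and 2 a higher value in the duct array, 3 were dim on average, and with the mean of all 5 the difference was 0.01.

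Fgfr1, the receptor found most widely in mesenchyme, read 3590 units in the duct array and 3596, 3009 and 2149 units in the anlage arrays. The duct array stood level with anlage array 1, and the difference was 0.32 ± 0.55 (SE), with an interval from -1.03 to 1.66. The other probe sets of Fgfr1 had lower values in the duct array, with differences of -0.37 and -0.60, so no direction can be given. One of them, 1425911_a_at, read 1775 units in anlage array 1 and 249 to 321 units in the other 3 arrays.

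**Figure D1:**
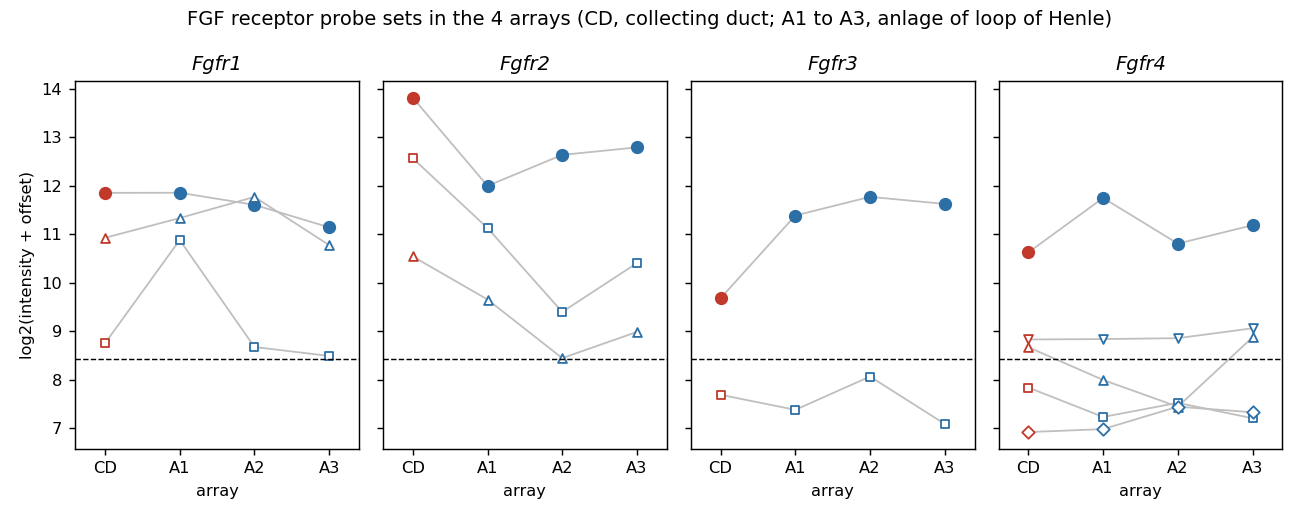
Probe sets of the 4 FGF receptors on the scale log2(intensity + 109.6) in the duct array (CD, red) and anlage arrays 1 to 3 (A1 to A3, blue). Filled circles are the probe set that stands for the gene, open symbols the others, grey lines join values of 1 probe set, and the dashed line is the limit for dim genes, 8.416. All 3 Fgfr2 probe sets are highest in the duct array, while the bright Fgfr3 probe set is lowest there at 9.68.

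Promoter windows of the receptors are shown because the value of Fgfr2 lay above, and those of Fgfr3 and Fgfr4 below, every anlage value. They come from RefSeq on build GRCm38.p6, run from 250 bases before to 50 after an annotated start, and are written 5' to 3' on the strand of the gene. Capitals mark GC boxes, the letters GGGCGG on either strand, where neighbouring matches may share letters. Windows were found for 7 of the 10 genes.
Fgfr2 (chr7:130266759-130267058, minus strand): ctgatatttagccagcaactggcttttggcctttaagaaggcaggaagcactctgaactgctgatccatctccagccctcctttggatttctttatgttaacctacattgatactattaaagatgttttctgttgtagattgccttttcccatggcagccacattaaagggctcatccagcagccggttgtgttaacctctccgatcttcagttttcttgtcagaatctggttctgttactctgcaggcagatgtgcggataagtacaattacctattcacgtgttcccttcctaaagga
Fgfr3, first start (chr5:33721474-33721773, plus strand): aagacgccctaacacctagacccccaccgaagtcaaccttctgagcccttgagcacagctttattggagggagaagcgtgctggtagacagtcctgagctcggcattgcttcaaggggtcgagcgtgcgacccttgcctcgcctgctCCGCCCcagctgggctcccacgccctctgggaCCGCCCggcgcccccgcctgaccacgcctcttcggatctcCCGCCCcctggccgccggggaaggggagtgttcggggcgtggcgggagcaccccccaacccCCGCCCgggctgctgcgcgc
Fgfr3, second start (chr5:33722056-33722355, plus strand): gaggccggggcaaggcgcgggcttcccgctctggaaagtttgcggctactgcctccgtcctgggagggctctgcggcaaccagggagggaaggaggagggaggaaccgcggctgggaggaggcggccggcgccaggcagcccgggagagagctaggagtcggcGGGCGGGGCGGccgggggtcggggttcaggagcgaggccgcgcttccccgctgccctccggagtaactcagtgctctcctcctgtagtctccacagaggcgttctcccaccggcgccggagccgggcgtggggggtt
Fgfr4 (chr13:55152568-55152867, plus strand): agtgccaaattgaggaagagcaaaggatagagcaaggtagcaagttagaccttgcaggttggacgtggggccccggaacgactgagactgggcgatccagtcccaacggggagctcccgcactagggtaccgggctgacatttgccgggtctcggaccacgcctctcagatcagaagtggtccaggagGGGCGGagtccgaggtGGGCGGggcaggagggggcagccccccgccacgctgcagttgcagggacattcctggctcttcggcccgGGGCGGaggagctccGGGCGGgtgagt

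The Fgfr2 window held 0 GC boxes, 4 CG pairs and 43.7% G and C. The Fgfr3 windows held 4 and 2 GC boxes, 26 and 30 CG pairs and 69.7% and 73% G and C. The Fgfr4 window held 4 GC boxes, 20 CG pairs and 65.3% G and C. A GC box occurred in 35.7% of all 32851 windows of this length, whose median G and C content was 52.7%. Searches on both strands for a TATA box (TATAAA, in 13.6% of all windows) and for an ETS site (CGGAAG, in 16.9%) found 0 matches in these 4 windows. These are letters in a window and say nothing of which factors bind.

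None of the 4 tested ligands differed beyond its error between the structures. Fgf9, a ligand of nephron progenitors that the ureteric epithelium also makes, read 2774 units in the duct array, against 5863, 1654 and 3436 units in the anlage arrays. The collecting duct value lay inside the anlage range, and the difference was -0.21 ± 0.77 (SE), with an interval from -2.09 to 1.66. Within the anlage this probe set ran in the reverse order of the Gapdh ratio, whose part was not tested. The other probe set of Fgf9 was highest in the duct array, at 480 units against 405, 292 and 297 units, a difference of 0.43, so the 2 disagreed in direction.

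Fgf7, a mesenchymal ligand of epithelial Fgfr2, read 281 units in the duct array, against 197, 221 and 1040 units in the anlage arrays. Anlage array 3 stood apart and the other 3 arrays were near the limit for dim genes. The difference was -0.32 ± 0.86 (SE), with an interval from -2.42 to 1.78. Leaving out anlage array 1 gave -0.71 and leaving out array 2 gave -0.56, while without array 3 Fgf7 was dim and not tested. Its other probe set was dim on average and did not share the peak, at 72.7 units in the duct array and 238, 142 and 85.5 units in the anlage arrays.

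Most interstitial stroma markers, and some muscle markers, were also highest in anlage array 3. Of 12 stroma markers 9 had their highest value there, while Foxd1 and Meis1 were highest in anlage array 1 and Pdgfrb in array 2. Counts of the highest array have no background here, since that share of all tested genes is not given. The summed intensity of the 12 stroma markers was 165604 in the duct array and 156036, 146370 and 357018 in the anlage. The matrix gene Lum had a log2 value of 8.92 in the duct array and 8.12, 10.1 and 14.7 in the anlage, and Tbx18, a stromal transcription factor, one of 9.97 against 7.84, 9.73 and 13.9. Of the 12 stroma markers 9 had a lower value in the duct array and 1 lay below all anlage arrays, and none was at 0 (background 54.9% lower and 24.3% below all). The summed intensity of 7 muscle markers was 7122 in the duct array, against 45237, 12344 and 106765 in the anlage, and 4 of the 7 were highest in array 3 and 3 in array 1. The part of stroma or muscle in the Fgf7 value was not tested, and in such pools more cells of a type and more RNA per cell cannot be told apart.

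Fgf10, a mesenchymal ligand of the same receptor form, read 292 units in the duct array, against 293, 522 and 195 units in the anlage arrays. The duct array matched anlage array 1 almost exactly only after normalization. The deposited values were 313 units in the duct array and 423, 315 and 190 units in the anlage arrays. The difference was -0.08 ± 0.60 (SE), with an interval from -1.55 to 1.38. Fgf10 did not share the peak of Fgf7 in anlage array 3, where it had its lowest value. Fgf1, a ligand able to bind all FGF receptors, read 729 units in the duct array, against 645, 893 and 748 units in the anlage arrays. It varied least over the 4 arrays of the 8 tested FGF genes, with a range of 0.41 on the log2 scale, and its difference was -0.05 ± 0.52 (SE), with an interval from -1.31 to 1.22. These intervals still allow differences of more than 1 on the log2 scale in either direction.

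The 2 dim ligands are given as values. Fgf8, the survival factor of the early nephron, read 5.6 units in the duct array, against 154, 435 and 228 units in the anlage arrays. After normalization anlage array 2 alone lay above the limit for dim genes. The deposited values were 5.38 units in the duct array and 224, 250 and 218 units in the anlage arrays. The groups did not overlap, while 24.3% of all tested genes also lay below all 3 anlage arrays. The difference was -1.66 with an anlage SD of 0.53 (n = 3), and it ranged from -3.07 to -0.75 with a smaller or larger offset, since 1 side was near zero. With dim genes kept in the fit, the interval ran from -3.03 to -0.29, with an unadjusted p of 0.0254 and an adjusted p of 1.00 by limma. In that fit 1.95% of 18193 genes were lower at an unadjusted p under 0.05.

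Other early nephron genes were measured beside Fgf8. Of 6 tested markers of the early nephron, a list that also names Fgf8, 5 had a lower value in the duct array (background 54.9%) and 4 lay below all 3 anlage arrays (background 24.3%). The summed intensity of the list, Fgf8 included, was 41209 in the duct array and 86985, 67011 and 79099 in the anlage. Most of that gap came from 1 gene, Ccnd1, without which the sums were 22121 in the duct array and 31111, 31016 and 24375 in the anlage. Lhx1, a transcription factor of the early nephron, had a log2 value of 9.59 in the duct array and 10.9, 11.9 and 9.85 in the anlage. Lhx1 is also on the list of ureteric tip markers. Wnt4 was the 1 tested marker with a higher value in the duct array (difference 0.58 ± 0.77, SE), and Pax8 differed by -0.11 ± 0.53. The part of such cells in the Fgf8 value was not tested. Fgf2, a ligand stored in matrix, read 67.0 units in the duct array and 85.2, 150 and 157 units in the anlage arrays, dim in all 4.

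**Figure D2:**
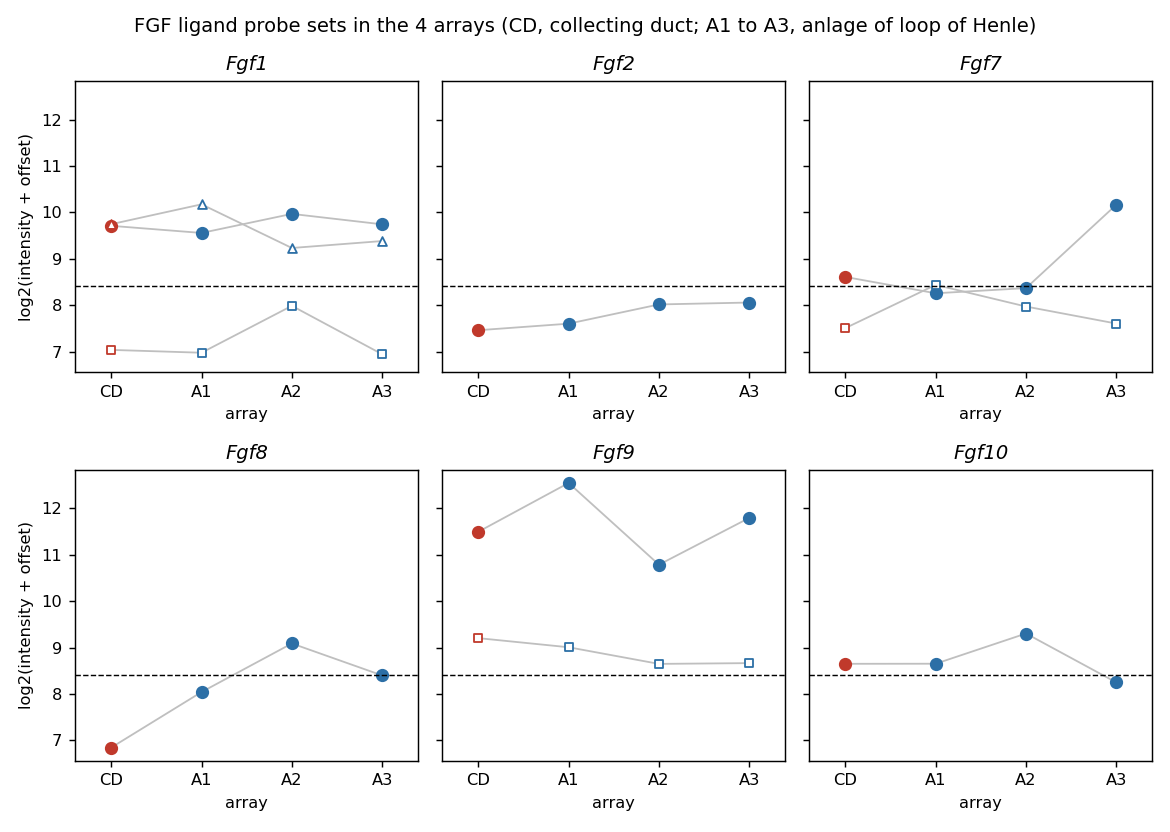
Probe sets of the 6 FGF ligands on the scale log2(intensity + 109.6) in the duct array (CD, red) and anlage arrays 1 to 3 (A1 to A3, blue), with symbols as for the receptors and the limit for dim genes, 8.416, dashed. Fgf8 is lowest in the duct array at 6.85, Fgf7 peaks in anlage array 3 at 10.2, and Fgf2 lies under the limit in all 4 arrays.

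**Figure D3:**
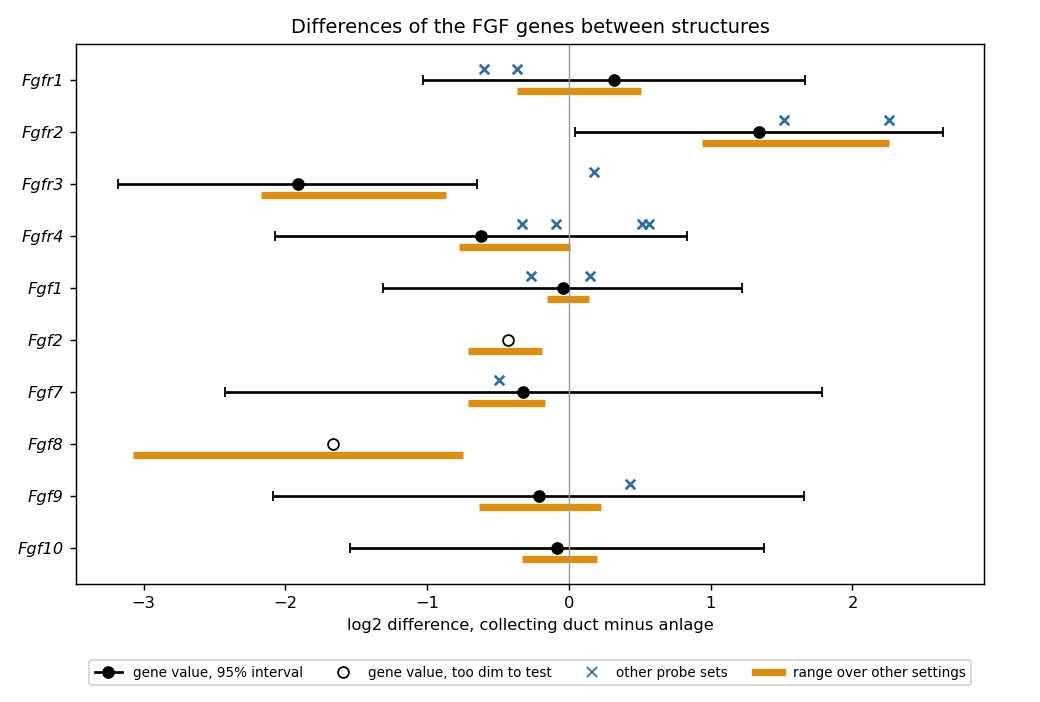
Log2 differences, collecting duct minus anlage, for the 10 FGF genes. Black points with bars are limma estimates with 95% intervals, open points are the dim genes, crosses are other probe sets, and orange bars give the range over the other settings tried. The interval excludes 0 for Fgfr2 (1.34) and Fgfr3 (-1.91) before adjustment over all genes.

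The genes most like 3 members over the 4 arrays were found by the root mean square difference of centred log2 values among 12641 other genes. The 3 members were those of widest range among the 8 tested. Nearest to Fgfr3 were Pf4, a platelet chemokine (0.06), Slc34a2, a phosphate transporter (0.07), and Slc7a7, an amino acid transporter (0.09). Nearest to Fgfr2 were Fam171a2 (0.04), the phospholipid flippase Atp8b1 (0.05) and Endod1 (0.05). Nearest to Fgf7 were the urothelial plaque gene Upk1b (0.14), the collagen gene Col8a2 (0.15) and the neurotrophin receptor Ntrk2 (0.15). With 4 arrays and so many genes, close matches are common, and the likeness only describes these arrays.

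Beyond the 10 genes, 5 lists of the FGF pathway were read from the same fit. Of 59 tested genes in these lists 0 were called at the adjusted p of 0.05, and at an unadjusted p under 0.05 there were 0 with a higher and 4 with a lower value (background 1.18% and 2.23%). Without anlage array 1 there were 4 with a higher and 9 with a lower value among 61 tested (background 3.08% and 7.85%). Of 60 tested without array 2 there were 0 and 2 (background 1.58% and 2.16%), as there were without array 3 (background 0.622% and 0.909%). The other ligands were mostly dim. Only 3 of 16 passed the filter, Fgf11 (difference 0.68 ± 0.51, SE), Fgf14 (0.46 ± 0.51) and Fgf4 (-0.48 ± 0.54). Fgf11 and Fgf14 belong to the FGFs that stay inside the cell.

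Among co-receptors, decoys and carriers, 8 of 14 tested genes had a higher value in the duct array (background 45.1%) and 6 a lower one. The median difference was 0.02. The glypican Gpc4, a cell-surface heparan sulfate proteoglycan, had a log2 value of 12.5 in the duct array and 13.9, 13.7 and 13.9 in the anlage. Its difference of -1.29 ± 0.42 (SE) was the 1 of this list with an unadjusted p under 0.05. The syndecan Sdc3 differed by -0.86 ± 0.55. Kl, which encodes Klotho, the partner of Fgf23 in the distal nephron, differed by 0.84 ± 0.65, and the adhesion protein Flrt1 by 0.76 ± 0.61. Over the other settings the differences ran from -0.93 to -0.20 for Sdc3, from 0.56 to 1.29 for Kl and from 0.42 to 0.99 for Flrt1. The value of -0.20 was the mean of the 3 Sdc3 probe sets, which therefore did not all share a direction. Gpc6 differed by 0.92 ± 1.07. Without anlage array 1 another of its probe sets was the brightest and gave -0.86, while the same probe set gave 1.77, so the probe sets disagree in direction. Fgfrl1, a receptor without a kinase domain, differed by -0.38 ± 0.46.

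Among genes that build and edit heparan sulfate, 8 of 13 had a higher (background 45.1%) and 5 a lower value, with a median of 0.14. Hs3st3b1, a heparan sulfate 3-O-sulfotransferase, had a log2 value of 8.79 in the duct array, against 10.5, 11.6 and 10.7 in the anlage. Its difference of -2.15 ± 0.65 (SE) was larger than that of any of the 8 tested FGF genes and had rank 143 by p. The 6-O-sulfotransferase Hs6st2 differed by 1.10 ± 0.58, Hs3st1 by 0.90 ± 0.54 and the chain-building enzyme Ext1 by 0.43 ± 0.75. Sulf1, which removes 6-O-sulfate groups, stood at 10.4 in the duct array and 9.73, 12.3 and 14.4 in the anlage, highest in array 3 like Fgf7 and 9 of the 12 stroma markers. Its difference was -1.76 ± 1.62. Over the other settings the differences ran from -2.53 to -1.05 for Hs3st3b1, from 0.27 to 1.35 for Hs6st2, from 0.029 to 0.95 for Ext1 and from -3.11 to -0.64 for Sulf1. The value of 0.27 was the mean of the 4 Hs6st2 probe sets, which therefore did not all share a direction.

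Adaptors and kinases between the receptors and the nucleus differed little, with a median of 0.19 over 16 tested genes. Of these, 12 had a higher value (background 45.1%). The largest difference was that of Nras, a small GTPase of the relay, which stood at 13.5 in the duct array and 12.5, 12.5 and 12.4 in the anlage (1.08 ± 0.46, SE). The exchange factors Sos1 and Sos2 differed by 0.87 ± 0.52 and 0.51 ± 0.91, and the adaptors Shc1 and Crkl by 0.73 ± 0.60 and -0.68 ± 0.63. Over the other settings the differences ran from 0.32 to 1.13 for Nras, from 0.42 to 1.13 for Sos1, from 0.42 to 0.88 for Shc1 and from -0.90 to -0.30 for Crkl. The value of 0.32 was the mean of the 3 Nras probe sets, which therefore did not all share a direction.

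Genes induced by FGF signalling, and its feedback inhibitors, mostly had lower values in the duct array. Of 13 tested genes 11 had a lower value (background 54.9%) and 6 lay below all 3 anlage arrays (background 24.3%), with a median of -0.73, against -0.06 for all genes. Many of these genes also answer to RET and other receptors, so the list is not specific to FGF. Ccnd1, a cell cycle activator, stood at 14.2 in the duct array, against 15.8, 15.1 and 15.7 in the anlage (-1.32 ± 0.39, SE). Egr1, an immediate early transcription factor, stood at 11.0 against 12.0, 13.0 and 12.4 (-1.49 ± 0.59). These were the 2 of the list with an unadjusted p under 0.05.

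Spread within the anlage was wide in this list, with an SD above the median of all tested genes, 0.46, for 11 of the 13 genes. It ran from 0.36 for Ccnd1 to 1.61 for Dusp6. Il17rd, which encodes Sef, a membrane inhibitor of FGF receptors, stood at 11.0 in the duct array and 11.1, 13.7 and 12.2 in the anlage (-1.36 ± 1.00, SE). Dusp6 differed by -1.82 ± 1.16 and Etv5, an ETS factor, by -1.39 ± 0.95. Etv4, another ETS factor, had a higher value in the duct array, by 0.23 ± 0.60. The Sprouty genes Spry1, Spry2 and Spry4 differed by -0.37 ± 0.73, -0.26 ± 0.60 and -0.57 ± 0.89, and the related inhibitors Spred1 and Spred2 by 0.08 ± 0.54 and -0.98 ± 0.59. Over the other settings the differences ran from -2.06 to -0.62 for Il17rd, from -2.66 to -0.92 for Dusp6 and from -2.06 to -0.33 for Etv5. The value of -0.33 was the mean of the 3 Etv5 probe sets, which therefore did not all share a direction. Anlage array 2 was the highest of the 4 arrays for 10 of the 13 genes, and array 1 for the other 3. The share of all tested genes highest in each array is not given here, so this count has no background. The mean log2 value of the list was 11.0 in the duct array and 11.6, 12.4 and 11.4 in the anlage. Anlage array 2 also had the highest Gapdh ratio of the 4. The summed intensity of 8 cap mesenchyme markers stood at 16963 in the duct array, while the anlage arrays gave 16602, 39521 and 15867, highest in array 2. Of 7 tested cap mesenchyme markers 6 were lower in the duct array (background 54.9%) and 3 lay below all anlage arrays (background 24.3%). Endothelial markers were lower in the duct array for 7 of 7 tested genes (background 54.9%), and 4 of them lay below all anlage arrays (background 24.3%). Their summed intensity, with Pecam1 and Tie1, was 2815 in the duct array, against 5309, 13524 and 13819 in the anlage. The summed podocyte markers (5299, against 6692, 20332 and 8101) and ureteric tip markers (9178, against 12018, 16101 and 3744) also peaked in anlage array 2. Of 6 tip markers 4, Etv4 and Etv5 among them, were highest there, and Wnt11 in array 1. The tip marker Slco4c1 was highest in the duct array and lowest in anlage array 2. The target list shares Etv4 and Etv5 with the ureteric tip list and Ccnd1 with the early nephron list. The part of any of these in these values was not tested.

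**Figure D4:**
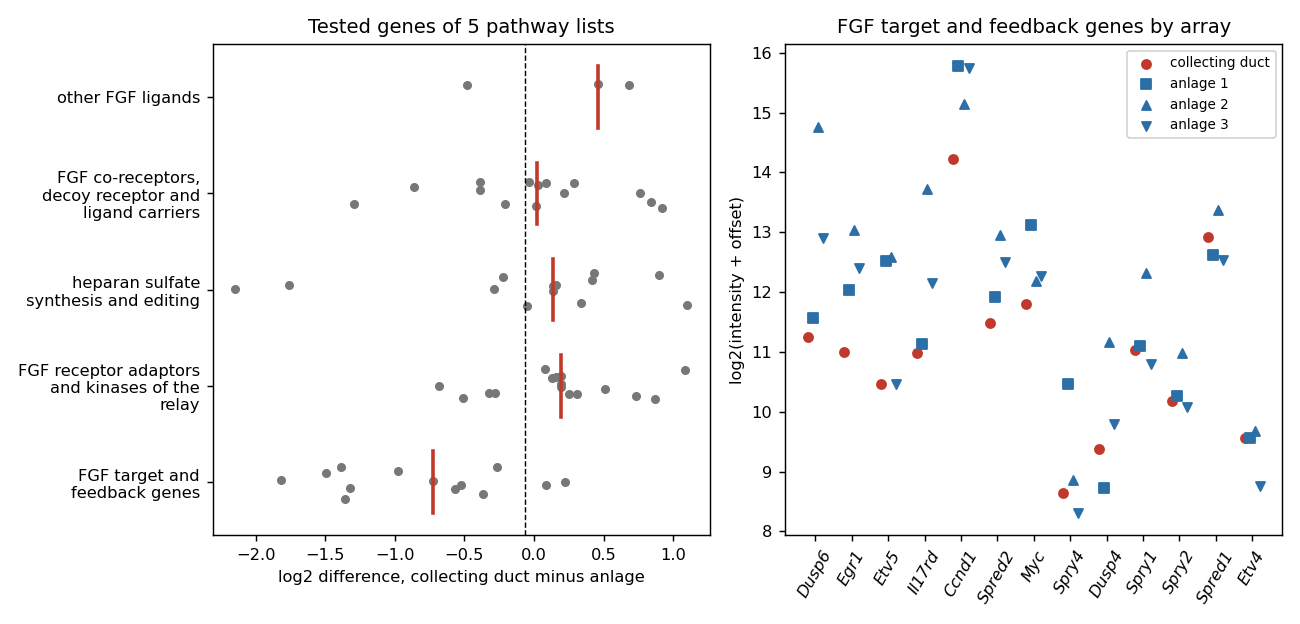
Left, log2 differences (collecting duct minus anlage) of the tested genes in 5 lists of the FGF pathway, with list medians in red and the median of all genes, -0.06, dashed; vertical scatter within a list has no meaning. Right, the 13 target and feedback genes on the scale log2(intensity + 109.6) in the duct array (red) and the 3 anlage arrays (blue). The target list has the lowest median, -0.73, and anlage array 2 (upward triangles) is highest for 10 of its 13 genes, a count without a background share.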

How the data were processed

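Expression was measured on 4 one-colour oligonucleotide arrays, with biotin-labelled RNA amplified over 2 rounds per the labels' protocols. The deposited file gives a linear intensity per probe set, from GCOS per the submitters' processing notes (version not given in the sources used here). After 2% of values were trimmed at each end, the mean was 1500 in each array, while medians ran from 207 to 526. Detection calls were not used here. The number of arrays limits the precision.

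Arrays were quantile normalized and log2(intensity + 109.6) was taken, the offset being the 25th percentile. Probe sets left out were 64 controls, 932 with several symbols and 9160 without one. The dim limit was the 40th percentile of probe sets. Entrez numbers matched 34741 of 34945 probe sets to RefSeq names, and 0 symbols changed. The comparison used limma 3.58.1 in R 4.3.3 (lmFit, eBayes with an intensity trend, two-sided, Benjamini-Hochberg over 12642 genes), with 2 residual and 4.04 prior degrees of freedom. The residual spread came from the anlage arrays, and the duct array was taken to vary as they did.

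All members were named. From each pathway list up to 5 tested genes with the largest absolute difference were named, then the genes of most like pattern. Fgfrl1, Lum, Tbx18, Lhx1, Wnt4, Pax8, Etv4, Foxd1, Meis1, Pdgfrb and the Sprouty and Spred genes were picked after seeing their values. The members and lists were chosen with earlier results of these data known. Of 89 pathway genes 81 had a usable probe set, and the other 8 were not analysed here. Alternatives covered normalization, offset, dim filter, probe set choice, variance model and each anlage array left out, with and without the probe sets kept.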

Additional observations from a re-analysis of the deposited data

How the results depend on the processing

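The counts, the differences of named genes, the list medians and the contrast of Fgfr2 with Fgfr3 were recomputed under 12 alternatives chosen with the design, of which 9 to 12 gave a value for a gene, since some left it dim. Marker sums and likeness were not recomputed. In 3 more, chosen after seeing the data, an anlage array was left out while each gene kept its probe set. The count of FGF genes past the adjusted threshold stayed at 0 in all 12, as did that of the pathway genes. The count over all genes ranged from 0 to 14 when 1 anlage array was left out, the 14 arising without array 2, with or without the probe sets kept, and none of these was an FGF gene. At an unadjusted p under 0.05 the number of FGF genes was 0 with arrays scaled to a common median or without anlage array 3, and 1 to 3 otherwise. Fgfr2 kept a higher value under all alternatives (0.94 to 2.26) and Fgfr3 a lower one (-2.18 to -0.87, the smallest with the mean of its probe sets). Signs turned for Fgfr1 (-0.22 with the mean of probe sets, -0.37 without shared probe sets), Fgfr4 (0.0085 with the mean of probe sets), Fgf1 (0.14 with the deposited values, 0.057 without anlage array 2 and its probe set kept), Fgf9 (0.11 with the mean of probe sets, -0.63 to 0.22 over the arrays left out, turning without anlage array 1) and Fgf10 (0.054 with the deposited values, -0.33 to 0.20 over the arrays left out, turning without anlage array 2). With 1 anlage array left out, signs also turned for Sos2 (-0.16 to 0.87) without array 1, and for Col8a2 (-0.48 to 0.33) and Ntrk2 (-0.73 to 0.32) without array 3. The cause of these turns was not tested. Gpc6 (-0.86 to 0.83) turned without array 1 through a change of probe set, and with its probe set kept gave 1.77. The median of the FGF target genes stayed below 0 (-1.24 to -0.52), while the medians of the other 4 pathway lists lay on both sides of 0, and the contrast of Fgfr2 with Fgfr3 ran from 2.57 to 4.17. No paired analysis was possible because the 2 structures share only 1 replicate number. Dim signal limits Fgf2, Fgf7 and Fgf8.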
